A study of Mus musculus with 48 samples.

Results

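The TAM receptors and their ligands are 5 mouse genes, the receptor tyrosine kinases Mertk, Axl and Tyro3 and the secreted proteins Gas6 and Pros1. They were taken by gene symbol from the 48709 Ensembl identifiers of the count files and were counted in all 46 mice. On mm10, Mertk (ENSMUSG00000014361) lies at chr2:128698956-128802894, Axl (ENSMUSG00000002602) at chr7:25757273-25788705, Tyro3 (ENSMUSG00000027298) at chr2:119797733-119818104, Gas6 (ENSMUSG00000031451) at chr8:13465374-13494490 and Pros1 (ENSMUSG00000022912) at chr16:62854307-62929346. They were chosen by their measured counts, for how Mertk and Axl behaved in mice with amyloid and in a cross with Fmn2 knockout mice, so the values of those contrasts are given for all 5 genes as a description without a test.

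Gas6 and protein S (the product of Pros1) are ligands within this family, and both bind phosphatidylserine on the surface of dying cells and membrane debris. The ligands thus bridge a cell to be removed and the phagocyte, and the activated receptors also dampen inflammatory signalling in the phagocyte. Which receptor each ligand binds was not measured here, so a shared course of Axl and Pros1 is not read as a receptor with its ligand. In the brain Mertk is found on microglia and astrocytes, Axl is induced on activated microglia, and Tyro3 is mainly a receptor of neurons.

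Messenger RNA was sequenced in C57BL/6J mice to follow the loss of Formin 2 (Fmn2), an actin nucleator, in the hippocampal dentate gyrus (DG). Wild-type mice (5 mice) and FMN2 knock out mice (5 mice) were sequenced at 3 months, and wild-type (3 mice) and knock out mice (5 mice) at 8 months, here called Fmn2+/+ and Fmn2-/-. In the second experiment all mice of a cross of Fmn2-/- mice with APPPS1-21 mice carry the amyloid transgenes at 3 months by label, and 7 mice were labelled FMN2-/-_APP and 9 were labelled FMN2 +/+ APP. The third experiment compared mice labelled APP (6 mice) and wild type (6 mice) at 4 months. The APPPS1-21 transgenes are expressed in neurons from a Thy1 promoter and lead to early amyloid deposition. The labels name no cell type for the Fmn2 deletion, and RNA was taken from whole tissue.

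Several labels went against the counts. Levels are given as CPM, read counts scaled to library size, with TMM scaling over the 46 mice. Fmn2 lay between 75.5 and 113 in Fmn2+/+ mice and between 20.9 and 28.1 in Fmn2-/- mice, but it was between 84.2 and 103.7 in the libraries labelled FMN2-/-_APP and between 19.2 and 24.2 in the libraries labelled FMN2 +/+ APP. The Fmn2 counts of the cross were thus the reverse of its labels in 16 of 16 mice, and the 2 groups are called below "the libraries labelled" FMN2-/-_APP or FMN2 +/+ APP. The level of Thy1, whose promoter the transgenes carry, was 1830 to 2380 in the mice labelled APP at 4 months, but in 3 of the 16 cross mice it was at or below 920, the highest value of the 18 mice of the first experiment. The 12 libraries of 4 months carry a dentate gyrus label but titles that name the prefrontal cortex. Prox1, a defining gene of dentate granule cells, was 11.1 to 19.9 in them against 186 to 378 elsewhere. Replicates 2 and 3 of the 8-month-old Fmn2-/- mice differed by a chi-square per degree of freedom of 1.62, where the remaining pairs of their group had 3.502 to 6.399 and the repeat runs of the same mouse, in 2 mice, had 1.72 and 2.15. They were kept as 2 mice as labelled, and no member was called at 8 months with both summed as 1 mouse. Libraries held between 6818809 and 43921030 reads counted on genes, and each Mertk value rested on at least 290 reads and each Pros1 value on at least 96, for which counting error alone gives a 95% interval of ± 11.5% and ± 20%.

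The stretches of 250 bases before the annotated starts of Mertk, Axl and Pros1 (RefSeq, GRCm38.p6, the assembly also called mm10) are shown because Mertk on one side and Axl and Pros1 on the other took different courses in the data. Capitals mark the 8-letter GC box CCCGCCCC, read on both strands.
Mertk, chr2:128698665-128698914, plus strand: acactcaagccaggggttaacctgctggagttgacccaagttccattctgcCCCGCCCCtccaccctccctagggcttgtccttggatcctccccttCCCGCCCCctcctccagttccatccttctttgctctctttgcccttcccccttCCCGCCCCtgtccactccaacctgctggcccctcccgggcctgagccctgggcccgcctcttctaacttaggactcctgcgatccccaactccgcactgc
Axl, chr7:25788734-25788983, minus strand: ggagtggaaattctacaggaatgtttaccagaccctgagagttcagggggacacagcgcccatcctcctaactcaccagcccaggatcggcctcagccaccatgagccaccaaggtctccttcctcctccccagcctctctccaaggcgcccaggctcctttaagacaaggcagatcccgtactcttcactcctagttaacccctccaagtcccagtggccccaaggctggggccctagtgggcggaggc
Pros1, chr16:62854057-62854306, plus strand: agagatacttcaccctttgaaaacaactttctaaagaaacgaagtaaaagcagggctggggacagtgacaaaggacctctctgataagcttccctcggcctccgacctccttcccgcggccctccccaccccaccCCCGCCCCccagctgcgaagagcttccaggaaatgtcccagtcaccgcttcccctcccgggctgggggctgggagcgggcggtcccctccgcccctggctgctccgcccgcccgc

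Mertk held the GC box 3 times, Pros1 and Gas6 once each, and Axl and Tyro3 not at all, while 15% of 32851 annotated promoters of the same length held it. None of the 5 stretches held the ETS-type letters CCGGAAGC (2.22% of promoters) or the TATA letters TATAAA (12.4%), again on both strands. The stretches had a GC content of 54.8% (Gas6) to 73.2% (Tyro3), above the median of all promoters (52.4%). A match is a description of the letters and says nothing of a factor's binding.

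The level of the 5 genes across the 8 groups was first compared per length, as CPM per kilobase of exon. In the 6 groups whose markers were those of the DG, the 3 receptors were of similar abundance. Mertk averaged 8.46 to 13.2, Axl 9.54 to 11.5 and Tyro3 6.58 to 8.29. The ligands differed more, with Gas6 between 26.2 and 35.8 and Pros1 between 3.02 and 4.37. Gas6 was thus 7.06 to 10.8 times as abundant per length as Pros1 in all 8 groups.

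**Figure D1:**
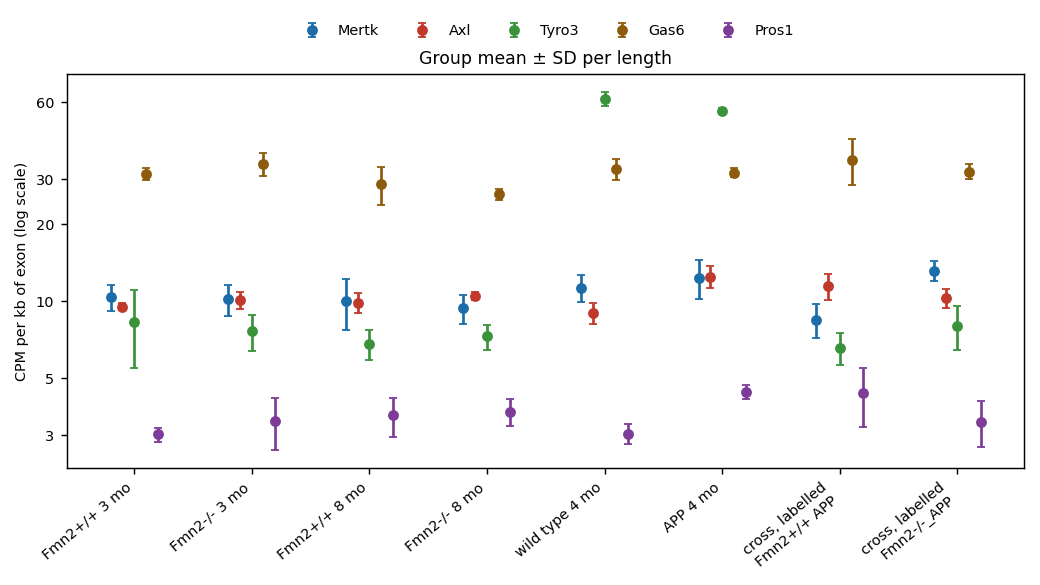
Level per length of the 5 genes in each of the 8 groups, as CPM per kilobase of exon on a log axis (points are group means, bars ± SD over 3 to 9 mice). Tyro3 stood at 55.5 and 61.9 in the 2 groups of 4 months and between 6.58 and 8.29 in the other 6 groups, whereas Gas6 stayed between 26.2 and 35.8 in all groups.

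Tyro3, the receptor found mainly on neurons, set the 4-month libraries apart. Its level there was 384 ± 23.7 CPM in wild-type mice (SD, n = 6) and 344 ± 9.16 CPM in mice labelled APP (SD, n = 6), against 40.8 to 51.4 CPM as group means elsewhere. The lowest 4-month library (333 CPM) lay above the highest of the other 34 mice (75.9 CPM). Per length, Tyro3 made up 75.3% of the summed level of the 3 receptors in the wild-type mice of 4 months and 29.4% in the 3-month-old Fmn2+/+ mice. These libraries came from different experiments, with titles naming a different brain region, so the ratio of 7.48 between the wild-type groups is given without a test.

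Within the DG libraries Tyro3 was also the most variable of the 3 receptors in the 3-month-old Fmn2+/+ mice, where it was 59.97, 46.7, 75.9, 44.0 and 30.2 CPM in replicates 1 to 5. Its coefficient of variation was 33.7% there, against 11.9% for Mertk and 2.9% for Axl. The summed level of 6 genes of cortical layers in the same replicates was 201.1, 167.3, 285.2, 142.5 and 144.7 CPM. The part of cortical tissue in the spread of Tyro3 was not tested.

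**Figure D2:**
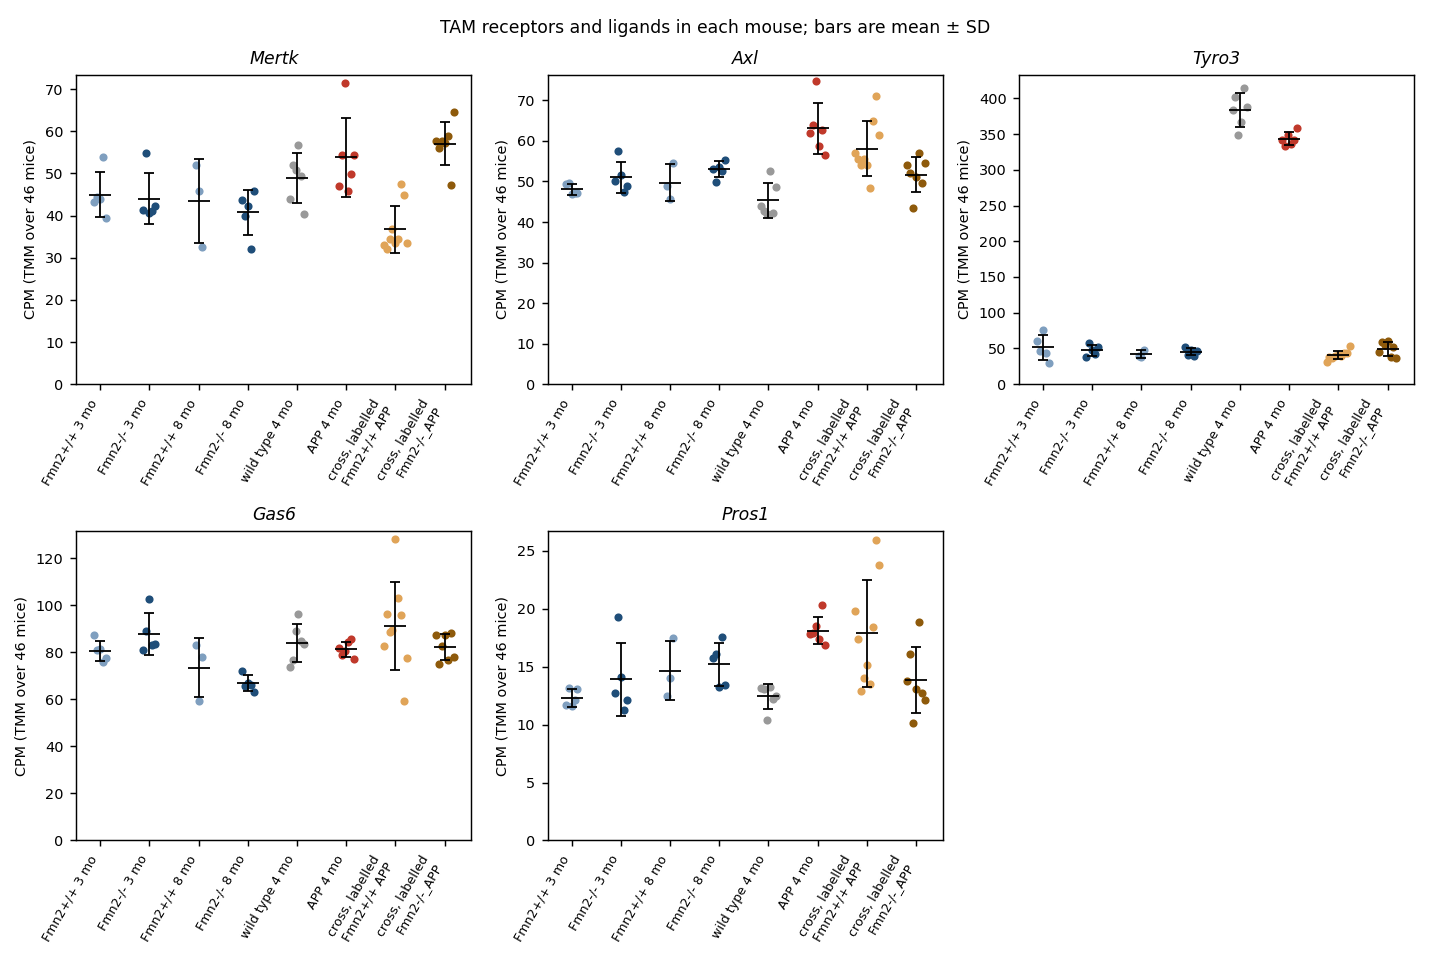
Level of each gene in each mouse, in CPM with TMM scaling over the 46 mice, by group (points are mice, bars mean ± SD). Mertk was above 47 CPM in all 7 libraries labelled FMN2-/-_APP and below 37 CPM in 7 of the 9 libraries labelled FMN2 +/+ APP, and Axl and Pros1 of the mice labelled APP lay above all wild-type mice of 4 months.

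The comparison of mice labelled APP with wild-type mice at 4 months asks what amyloid deposition does to the genes. Axl and Pros1 were higher in the mice labelled APP and did not overlap with wild type, whereas Mertk, Tyro3 and Gas6 overlapped. The share of all genes whose groups did not overlap was not counted, here or in the other comparisons. Because the rule drew on this contrast, log2 fold changes and standard errors (SE) from edgeR are given without a p-value. Of 16733 genes tested, 2.3% (385 genes) were called, meaning an adjusted p below 0.05 together with a change of 0.5 or more on the log2 scale in either direction. An unadjusted p under 0.05 from edgeR was found for 2333 genes.

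Axl ran from 56.6 to 74.7 CPM in the mice labelled APP (median 62.3, n = 6) and from 42.0 to 52.7 CPM in wild type (median 43.3, n = 6). Its log2 fold change was 0.47 (SE 0.0691), a fold of 1.39, which is under the change of 0.5 asked of a called gene. Pros1 ran from 16.8 to 20.3 CPM in the mice labelled APP (median 17.8) and from 10.4 to 13.3 CPM in wild type (median 12.8), a log2 fold change of 0.54 (SE 0.0689). In these 2 genes every mouse labelled APP lay above every wild-type mouse. Leaving out any 1 mouse kept the log2 fold change of Axl between 0.42 and 0.52 and that of Pros1 between 0.5 and 0.56.

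Mertk ran from 45.8 to 71.4 CPM in the mice labelled APP (median 52.0) and from 40.3 to 56.8 CPM in wild type (median 50.2). The log2 fold change was 0.14 (SE 0.112), and only replicate 3 of the mice labelled APP, with 71.4 CPM, lay above the wild-type range. Without that mouse the difference was 0.04. Tyro3 was 0.16 lower on the log2 scale in the mice labelled APP (-0.16, SE 0.0417), with 4 of 6 mice below all wild-type mice, and Gas6 differed by -0.05 (SE 0.056). Of the 3 receptors, then, only Axl separated the groups in every mouse, and Axl rose from 11% to 15.5% of the summed receptor level per length.

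Markers of microglia moved with Axl and Pros1 in this contrast. The summed level of 10 microglia genes was 596 to 766 CPM in the mice labelled APP and 358 to 385 CPM in wild type, with 9 of 10 genes called higher. Cst7, a cystatin of plaque-associated microglia, was at 29.4 to 40.2 CPM against at most 0.258 CPM. Markers of other cells differed as well. The astrocyte gene Gfap was at 173 to 291 CPM against 48.9 to 67.8 CPM, while the sums of the 8 astrocyte genes overlapped. The 6 oligodendrocyte genes had a median log2 fold change of -0.787, with 0 called. In bulk RNA, more cells of a type and more RNA per cell cannot be told apart, and the part of the marker genes in the result was not tested. All 6 mice labelled APP were sequenced on lane 7 and all 6 wild-type mice on lane 5, so the lane and the genotype cannot be told apart.

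Other genes of the pathway, from a list of 47 genes in 8 roles, were tested in this contrast because the rule does not name them. The list was drawn up with earlier results of these data known. Of 44 tested, 6 were higher in the mice labelled APP and 0 lower (13.6%, against 2.3% of all genes), and the median log2 fold change was 0.03 against 0.00 over all genes. Itgb5, the integrin beta 5 chain that binds Mfge8-coated debris, rose from 32.6 ± 1.10 to 56.7 ± 5.55 CPM (SD, n = 6 each), a log2 fold change of 0.80 (SE 0.0585, adjusted p = 8.18e-09, edgeR's quasi-likelihood test). Dock2, a Rac activator of blood-derived and microglial cells, rose by 1.12 on the log2 scale (SE 0.0956, adjusted p = 7.11e-08, edgeR). Vav1, a guanine exchange factor downstream of Mertk, rose by 0.84 (adjusted p = 1.42e-05, edgeR) and Plcg2, a phospholipase of immune cells, by 0.80 (adjusted p = 0.000528, edgeR).

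The phosphatidylserine receptor Cd300lf was low throughout, at 0.126 ± 0.0818 CPM in wild type and 0.831 ± 0.275 CPM in mice labelled APP (adjusted p = 4.64e-05, edgeR). In each of the 5 named genes the groups did not overlap. None of the 4 nuclear receptors named as upstream of Mertk (log2 fold changes from -0.15 to 0.03), the 5 genes of phosphatidylserine exposure or the 3 genes of vitamin K carboxylation passed the test. The shedding protease Adam17, which cuts Mertk from the surface, had a log2 fold change of 0.14 (adjusted p = 0.284, edgeR).

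**Figure D3:**
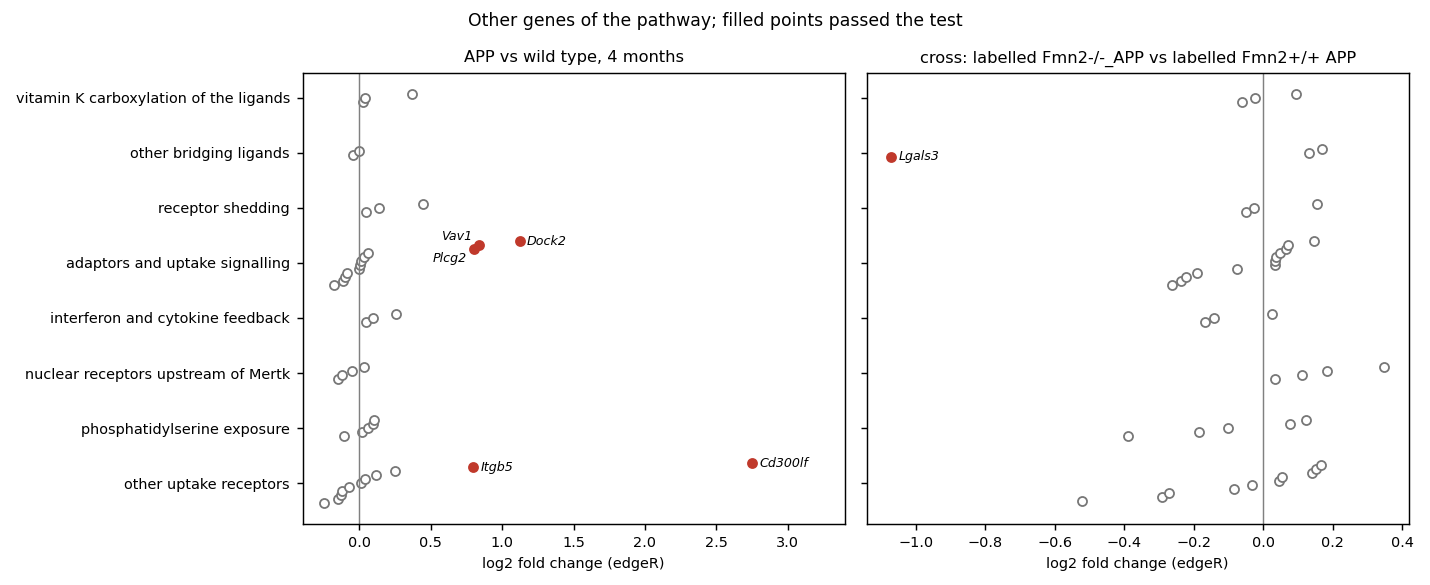
Log2 fold change (edgeR) of pathway genes that passed the count filter, by role, with 1 gene not shown, in mice labelled APP against wild type at 4 months (left) and in the cross (right). Filled points passed the test. They are 5 genes with positive values on the left and Lgals3 with -1.07 on the right.

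The cross asks whether Fmn2 changes the expression of mice labelled as carrying amyloid transgenes. The counts do not bear this label out in every mouse, since App was at or below 1830 CPM, the highest value of the first experiment, in 12 of the 16 cross mice and Thy1 at or below its highest value there in 3. Mertk was higher in the libraries labelled FMN2-/-_APP, which are those with the higher Fmn2 counts, while Axl and Pros1 had negative log2 fold changes with overlapping groups. Of 16656 genes tested, 0.75% (125 genes) were called at the same thresholds.

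Mertk ran from 47.2 to 64.5 CPM in the libraries labelled FMN2-/-_APP (median 57.7, n = 7) and from 32.1 to 47.6 CPM in the libraries labelled FMN2 +/+ APP (median 34.4, n = 9). The log2 fold change was 0.64 (SE 0.0843), a fold of 1.55. The groups overlapped only through replicate 7 of each, at 47.2 and 47.6 CPM, and these are the 2 mice that were each sequenced in 2 runs. Within lane 5 the 3 libraries labelled FMN2-/-_APP lay between 55.9 and 57.8 CPM and the 3 labelled FMN2 +/+ APP between 32.1 and 36.8 CPM. Within lane 6 the corresponding ranges were 57.3 to 64.5 and 33.4 to 34.5 CPM. Without the 3 mice with low Thy1 the log2 fold change was 0.66. It was 0.60 without the 2 libraries rich in choroid plexus markers, here and below those with a summed marker level over 500 CPM.

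Axl ran from 43.5 to 57.1 CPM in the libraries labelled FMN2-/-_APP (median 52.0) and from 48.4 to 71.1 CPM in those labelled FMN2 +/+ APP (median 55.7). The log2 fold change was -0.17 (SE 0.0755), and the groups overlapped. Pros1 ran from 10.2 to 18.8 CPM and from 12.9 to 25.9 CPM in the same order, with a log2 fold change of -0.37 (SE 0.159). Its highest values, 25.9 and 23.8 CPM, were replicates 8 and 9 of the libraries labelled FMN2 +/+ APP, both sequenced on lane 7. With the lane as a covariate the log2 fold change of Pros1 was -0.26. The direction of both genes was not the same in each lane. In lane 5 the mean of Axl was 49.9 CPM in the libraries labelled FMN2-/-_APP and 56.1 CPM in those labelled FMN2 +/+ APP, but in lane 6 it was 54.3 against 52.2 CPM. Pros1 likewise averaged 13.4 against 17.1 CPM in lane 5 and 14.7 against 13.9 CPM in lane 6, with 3 mice a group in each lane.

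Of 10 listed genes of plaque-associated microglia, 9 could be tested in the cross, and 1 was called, lower in the libraries labelled FMN2-/-_APP. The sum of the 10 genes was 102.2 to 192 CPM in those libraries (median 139) and 119 to 254 CPM in the libraries labelled FMN2 +/+ APP (median 198). Both medians lay below that of the 3-month-old Fmn2+/+ mice without amyloid (216 CPM). Lpl had the highest median of the 10 genes in both cross groups (66.3 and 90.1 CPM), so the sum follows Lpl more than the other genes. Not all members pointed the same way, and Gpnmb had the higher median in the libraries labelled FMN2-/-_APP (9.44 against 8.03 CPM). Cst7, Itgax and Clec7a, taken from the list after their values were seen, summed to 0.37 to 12.4 CPM in the libraries labelled FMN2-/-_APP (median 0.6) and 0.99 to 25.8 CPM in those labelled FMN2 +/+ APP (median 7.75). The mouse with the highest sum of these 3 genes, replicate 8 of the latter group, also had the highest Axl (71.1 CPM) and Pros1 (25.9 CPM) of all 16 cross mice. Replicate 2 of the libraries labelled FMN2-/-_APP had the highest sum of its group (12.4 CPM). Its Axl was at the median of that group (52.0 CPM), and its Pros1 was 16.1 CPM. The meningeal and fibroblast genes were also higher in that group, with a median sum of 374 against 148 CPM. The part of either list in the values of Axl and Pros1 was not tested.

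**Figure D4:**
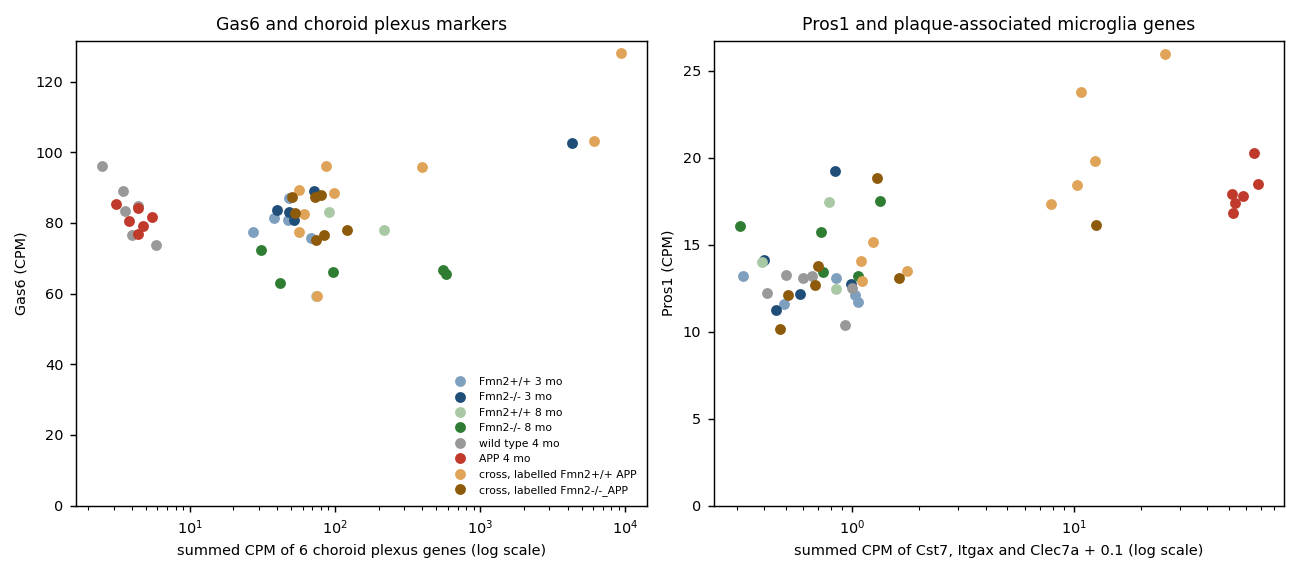
Level of Gas6 against the summed CPM of 6 choroid plexus genes (left) and of Pros1 against the summed CPM of Cst7, Itgax and Clec7a plus 0.1 (right) in the 46 mice, both x axes on a log scale and both y axes in CPM. The 3 mice with choroid plexus sums over 4000 had Gas6 values of 102.5, 103.1 and 128 CPM. The 2 further mice with sums over 500, replicates 2 and 3 of the 8-month-old Fmn2-/- mice, had 65.7 and 66.8 CPM. The mice labelled APP lay at Pros1 values of 16.8 to 20.3.

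Tyro3 was 0.29 higher on the log2 scale in the libraries labelled FMN2-/-_APP (SE 0.114), with 36.8 to 61 CPM against 31.5 to 53.0 CPM. Gas6 differed by -0.15 (SE 0.109). Its 2 highest libraries, at 128 and 103.1 CPM, were replicates 4 and 5 of the libraries labelled FMN2 +/+ APP, whose 6 choroid plexus markers summed to 9310 and 6071 CPM against at most 122 CPM in the libraries labelled FMN2-/-_APP. Without these 2 libraries the Gas6 difference was -0.04.

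Of the 44 pathway genes tested in the cross, 1 was called (2.27%, against 0.75% of all genes), and the median log2 fold change was 0.03 against 0.01 over all genes. This was Lgals3, galectin 3, which can bridge debris to Mertk. It was at 0.883 ± 0.301 CPM (SD, n = 7) in the libraries labelled FMN2-/-_APP and 1.87 ± 0.379 CPM (SD, n = 9) in those labelled FMN2 +/+ APP, a log2 fold change of -1.07 (SE 0.223, adjusted p = 0.0225, edgeR) with no overlap. The call held in 23 of 28 other settings. It was lost with the replicate block (-1.05, adjusted p = 0.0697, edgeR), without the libraries rich in choroid plexus markers (-0.99, adjusted p = 0.0729, edgeR) and without the mice with low Thy1 (-1.11, adjusted p = 0.0659, edgeR), and also in the 2 settings that combine one of these with another change. The retinoid receptor Rxra, a partner of the liver X receptors that drive Mertk, had a log2 fold change of 0.35 (SE 0.114, adjusted p = 0.134, edgeR).

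In mice without amyloid the question is whether Fmn2 loss alone alters the genes. The rule does not name this contrast, so tests are given here. The genes were still chosen with earlier results of these data known. At 3 months none of the 5 passed the test, and 0.0361% of 16630 genes did (6 genes), here with a change of 0.25 or more on the log2 scale. All Fmn2+/+ mice of 3 months were sequenced on lane 5. Of the Fmn2-/- mice, replicate 1 was on lane 5 and replicates 2, 4, 5 and 6 on lane 6, so lane and genotype nearly coincide. Mertk was 43.3, 44.5, 43.8, 53.9 and 39.4 CPM in Fmn2+/+ mice and 41.3, 54.9, 40.5, 41.2 and 42.2 CPM in Fmn2-/- mice. The ranges covered each other. Its log2 fold change was -0.06 (SE 0.106, 95% interval -0.26 to 0.15, adjusted p = 0.886, edgeR). Axl was 46.9 to 49.7 CPM in Fmn2+/+ mice and 47.4 to 57.4 CPM in Fmn2-/- mice, with a fitted log2 fold change of 0.06 (95% interval -0.06 to 0.19, adjusted p = 0.751, edgeR). For Tyro3, Gas6 and Pros1 the values were -0.14, 0.10 and 0.15 with adjusted p-values of 0.854, 0.644 and 0.73 from edgeR.

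The levels of Mertk in the cross can be set beside these. The libraries labelled FMN2 +/+ APP, with the low Fmn2 counts, had 36.7 ± 5.58 CPM of Mertk (SD, n = 9), and the 3-month-old Fmn2-/- mice had 44.0 ± 6.13 CPM (SD, n = 5). The libraries labelled FMN2-/-_APP had 57 ± 5.15 CPM (SD, n = 7) and the 3-month-old Fmn2+/+ mice 45.0 ± 5.35 CPM (SD, n = 5). The means of the 2 cross groups thus lay on either side of the means of the first experiment, but the ranges overlapped in both pairs. Of the libraries labelled FMN2 +/+ APP, 7 of 9 lay below all 3-month-old Fmn2-/- mice. Of those labelled FMN2-/-_APP, 6 of 7 lay above all 3-month-old Fmn2+/+ mice. These means come from different experiments and were not tested against each other.

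At 8 months again none of the 5 genes passed the test, against 2.13% of 14665 genes (312 genes). Replicate 1 of the Fmn2+/+ mice was sequenced on lane 6 and the other mice of this comparison on lane 7. Mertk was 52.0, 45.9 and 32.6 CPM in Fmn2+/+ mice and 43.7, 39.9, 42.2, 32 and 45.9 CPM in Fmn2-/- mice, with a fitted log2 fold change of -0.05 (SE 0.136, adjusted p = 0.871, edgeR). Axl was 48.9, 45.7 and 54.6 CPM in Fmn2+/+ mice and 49.9 to 55.4 CPM in Fmn2-/- mice, with a fitted log2 fold change of 0.15 (SE 0.0777, adjusted p = 0.259, edgeR). Tyro3, Gas6 and Pros1 had log2 fold changes of 0.16, -0.09 and 0.14, with adjusted p-values of 0.392, 0.576 and 0.594 from edgeR. The share of called genes in this comparison rests on single libraries, since without Fmn2+/+ replicate 2, the shallowest library, 3114 genes were called, and without replicate 1, the deepest, 6. The 5 genes were not called in either case.

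Among the 42 pathway genes tested at 8 months 1 was called (2.38%, against 2.13% of all genes), the uptake receptor Adgrb1, which is also known as BAI1. It was at 250 ± 51.8 CPM in Fmn2+/+ mice (SD, n = 3) and 186 ± 1.98 CPM in Fmn2-/- mice (SD, n = 5), a log2 fold change of -0.37 (SE 0.0877, adjusted p = 0.0494, edgeR). The call held in 5 of 18 other settings. At 3 months 0 of 44 pathway genes were called by edgeR's quasi-likelihood test or by DESeq2. An unadjusted p under 0.05 from edgeR was found for 5 of the 44 and for 1737 of all 16630 genes.

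**Figure D5:**
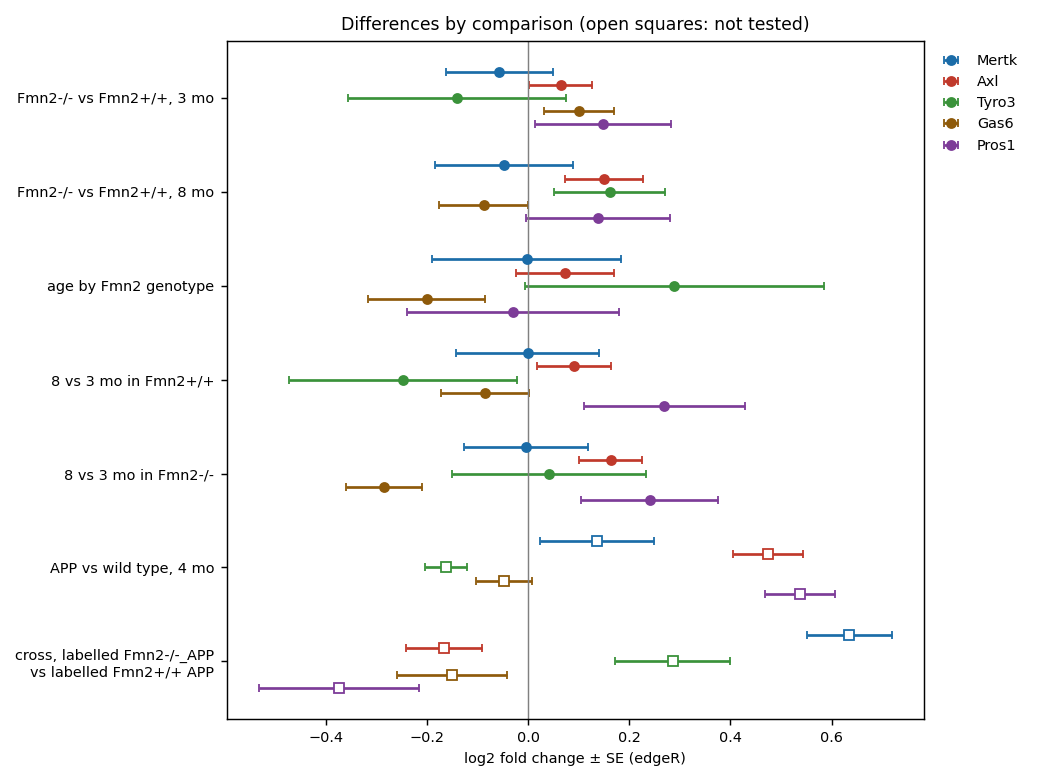
Log2 fold change of each gene (edgeR, bars ± SE) in 7 comparisons. Filled circles were tested and open squares, the APP and cross comparisons, were not. Of the filled circles only Gas6 from 3 to 8 months in Fmn2-/- mice (-0.29) passed the test, and Mertk was at 0.64 in the cross and at 0.14 in mice labelled APP.

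The difference between 8 and 3 months was taken in a fit of the 4 groups of the first experiment. Gas6, the more abundant ligand, was lower at 8 than at 3 months in Fmn2-/- mice in the main fit. It was 80.8, 89, 102.5, 83.0 and 83.5 CPM at 3 months and 72.2, 65.7, 66.8, 66.1 and 63 CPM at 8 months. The 2 ages did not overlap. The log2 fold change was -0.29 (SE 0.0753, adjusted p = 0.0219, edgeR), and 6.49% of 17046 genes were called in this comparison (1107 genes). The highest value, 102.5 CPM, was replicate 4 of the 3-month-old mice, whose choroid plexus markers summed to 4280 CPM against 39.7 to 72 CPM in the other 4. Without this mouse the log2 fold change was -0.22 (adjusted p = 0.0639, edgeR). Leaving out replicate 2, 3, 4 or 5 of the 8-month-old mice gave adjusted p-values of 0.0534, 0.0516, 0.0542 and 0.0615 (edgeR), and a correction for exon length and GC content gave -0.20 (adjusted p = 0.109, edgeR). Replicates 2 and 3 of the 8-month-old mice, the near-identical libraries, were counted here as 2 mice. A fit with both summed was not run for the change with age. The 3-month-old Fmn2-/- mice were sequenced on lanes 5 and 6 and the 8-month-old ones on lane 7, and with the lane as a covariate the value was -0.15 (adjusted p = 1, edgeR).

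In Fmn2+/+ mice Gas6 was 75.7 to 87.2 CPM at 3 months and 83.1, 59.4 and 77.9 CPM at 8 months, a log2 fold change of -0.09 (SE 0.0874, adjusted p = 0.581, edgeR), where 9.23% of genes were called. The difference between the genotypes in this change was -0.20 (SE 0.115, adjusted p = 0.304, edgeR), so the fall in Fmn2-/- mice was not shown to differ from that in Fmn2+/+ mice. None of the 5 genes passed the test of age by genotype, in which 3.94% of genes were called. Axl and Pros1 had positive values from 3 to 8 months in both genotypes (0.09 and 0.27 in Fmn2+/+, 0.16 and 0.24 in Fmn2-/-), and no adjusted p-value was under 0.119 in edgeR's test. Without replicate 2 of the 3-month-old Fmn2-/- mice, the highest Pros1 of its group (19.3 CPM), Pros1 had a log2 fold change of 0.40 (adjusted p = 0.0365, edgeR).

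Of the 44 pathway genes, 3 rose with age in Fmn2+/+ mice and 0 fell (6.82%, against 9.23% of all genes). They were Mfge8, a bridging protein for integrins (log2 fold change 0.40, adjusted p = 0.0373, edgeR), the retinoid receptor Rxrb (0.26, adjusted p = 0.0291, edgeR) and the uptake receptor Stab2 (0.67, adjusted p = 0.0392, edgeR). In Fmn2-/- mice 1 rose and 3 fell (9.09%, against 6.49% of all genes). The integrin chain Itgav rose by 0.36 (adjusted p = 0.00328, edgeR), and Adgrb1 fell by 0.36 (adjusted p = 0.0078, edgeR), the adaptor Bcar1 by 0.29 (adjusted p = 0.0216, edgeR) and the liver X receptor Nr1h2 by 0.34 (adjusted p = 0.0312, edgeR). Of 25 other settings, the call held in 15 for Mfge8, 4 for Rxrb and 11 for Stab2, and in 23 for Itgav, 23 for Adgrb1, 17 for Bcar1 and 16 for Nr1h2. With the lane as a covariate 0 pathway genes were called in either genotype. No pathway gene passed the test of age by genotype with edgeR, and DESeq2 called 2. An unadjusted p under 0.05 from edgeR was found for 14 of the 44 and for 3880 of all 17046 genes.

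The order of the groups can be read from the 5 genes together. The highest mean of Mertk was in the libraries labelled FMN2-/-_APP and the lowest in those labelled FMN2 +/+ APP, with the 6 other groups between 40.7 and 53.8 CPM. For Axl and Pros1 the mice labelled APP ranked first (63.2 ± 6.28 and 18.1 ± 1.19 CPM, SD, n = 6), followed by the libraries labelled FMN2 +/+ APP (58 ± 6.79 and 17.9 ± 4.6 CPM, SD, n = 9). For Gas6 the means ran from 66.8 CPM in 8-month-old Fmn2-/- mice to 91.2 CPM in the libraries labelled FMN2 +/+ APP. Neighbouring groups in each order overlapped in range, with the single exception of Tyro3 between the mice labelled APP and the 3-month-old Fmn2+/+ mice.

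Across the 46 mice, the deviations of log2 CPM from the group means were compared between genes, which leaves out the differences between groups. These correlations describe 46 libraries that share lanes and dissections, and no test is attached. Axl and Pros1 varied together (Pearson r = 0.716), and Pros1 was the second of the 14754 other genes in likeness to Axl, after the transporter Slco2b1 (r = 0.729) and before Csf1r, the receptor for colony-stimulating factor 1 on microglia (r = 0.713). Mertk and Axl had an r of 0.404, and Mertk and Pros1 of 0.108. The genes most like Mertk were Hip1, an endocytic adaptor (r = 0.689), Nwd1 (r = 0.678) and Gm37069 (r = 0.664).

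Pros1 varied most closely with Tagln2 (r = 0.814), the interferon-induced membrane protein Ifitm3 (r = 0.803) and the cathepsin Ctsh (r = 0.803). Tyro3 went with Asap1 (r = 0.806) and Gm28928 (r = 0.748). Gas6 went with the anion exchanger Slc4a2 (r = 0.743), the matrix protease Mmp2 (r = 0.738) and the glycogen phosphorylase Pygm (r = 0.738). Gas6 had a negative r with Pros1 (-0.364), with Axl (-0.242) and with Mertk (-0.207).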

How the data were processed

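Whole-tissue RNA was extracted with Trizol and sequenced from TruSeq libraries. Whether counting used the strand is not given in the sources used here. The authors used STAR for alignment (mm10) and HTSeq for counting, and the deposited values are raw counts for 48709 Ensembl identifiers without normalization. Symbols and exon lengths came from GENCODE M21 (48349 identifiers had a length). The 48 runs came from 46 mice, since replicate 7 of each cross group was run on 2 lanes and both runs were summed.

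Each comparison used edgeR 4.0.16 (R 4.3.3) with filterByExpr, TMM and the robust quasi-likelihood test, and p-values were adjusted by Benjamini-Hochberg over all genes tested. Genes were called at an adjusted p below 0.05 and a log2 change, in either direction, of 0.25 or more (Fmn2) or 0.5 or more (APP and cross). Fits were tested on simulated data. The alternatives were DESeq2 1.42.0, RLE scaling, no count filter, correction for exon length and GC content, lane, replicate block and leaving out each mouse.

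The 5 members and the gene lists were chosen with earlier results of these data known. Named pathway genes were up to 6 called per comparison with the smallest adjusted p, and for each member the 3 genes with the highest r. Adam17, Rxra, Gpnmb and Gfap were named after their values were seen. Some genes that the rule names are not reported here. The replicates are separate mice as far as the labels say, and p-values measure the spread between these samples. Intervals from read counts cover counting error only.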

Additional observations from a re-analysis of the deposited data

Results flagged for a closer look

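In 35 sets of 1 gene in 1 group of 4 to 10 mice, 3 mice stood apart from the rest of their group by Dixon's gap test at the 95% level, and chance flags about 1 in 20 such sets. The Mertk level of replicate 2 of the 3-month-old Fmn2-/- mice was 54.9 CPM, with the nearest mouse at 42.2 CPM. The Mertk level of replicate 3 of the mice labelled APP at 4 months was 71.4 CPM, with the nearest at 54.3 CPM. The Pros1 level of replicate 3 of the wild-type mice of 4 months was 10.4 CPM, below the nearest mouse at 12.2 CPM. No difference between the genotypes in the change with age passed the test for any of the 5 genes.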

How the results depend on the processing

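The 5 genes kept their direction in the APP and cross comparisons under every alternative run. The set was chosen for how Mertk and Axl behaved in these comparisons, so the kept direction is a description and not a test. The lane could not be a covariate in the APP comparison, where it went with the genotype. Within lane 6 of the cross, the libraries labelled FMN2-/-_APP had the higher means of Axl (54.3 against 52.2 CPM) and Pros1 (14.7 against 13.9 CPM). None of the 5 genes was called at 3 or 8 months in any alternative. Replicate numbers do not mark shared animals, and the mean correlation of same-numbered mice was between -0.02 and 0.069. With the replicate block Tyro3 at 3 months was 0.03 and Mertk at 8 months 0.02, with 2 and 5 genes called and 0 pathway genes at 8 months or in the cross. With the block and a correction for exon length and GC content these counts were 2, 5, 0 and 0, Tyro3 at 3 months was 0.01 and Gas6 at 8 months 0.11.

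With the lane as a covariate Gas6 at 3 months was -0.01, Mertk 0.07 and Pros1 -0.04 at 8 months, and Mertk 0.21 for age by genotype, with 3, 3 and 1 genes called and 0 pathway genes at 8 months. For 8 against 3 months in Fmn2+/+ it gave Mertk 0.07, Axl -0.03 and Pros1 -0.16, with 58 genes and 0 pathway genes called, and in Fmn2-/- Mertk 0.28, Tyro3 -0.25, Gas6 -0.15, Pros1 -0.24 and Adgrb1 0.05, with 0 genes and 0 pathway genes called. Lane and age cannot be told apart there.

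DESeq2 called 91 genes at 3 months, 733 at 8 months (3 pathway genes), 1401 for age by genotype (2 pathway genes, Mertk 0.02) and 304 in the cross. RLE scaling called 3 at 3 months and gave Mertk 0.01 for age by genotype. Without a count filter 34 were called at 3 months, 1324 at 8 months (3 pathway genes), and 0 pathway genes with age in Fmn2+/+. The length and GC correction called 3, 32, 22, 824 and 551 genes (3 months, 8 months, age by genotype, age in Fmn2+/+, age in Fmn2-/-), 0 pathway genes at 8 months and 1 with age in Fmn2-/-, and gave Gas6 0.07 at 8 months, 0.05 for age by genotype and -0.20 with age in Fmn2-/-, and Mertk 0.03 with age in Fmn2+/+.

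Of the alternatives chosen after seeing the data, leaving out the libraries rich in choroid plexus markers called 3, 4, 32, 402 and 56 genes (3 months, 8 months, age by genotype, age in Fmn2-/-, cross), 0 pathway genes at 8 months, with age in Fmn2+/+ or in the cross, and 1 with age in Fmn2-/-, with Gas6 at -0.22 there and Pros1 at 0.02 for age by genotype. Without the robust option 166 genes and 0 pathway genes were called at 8 months, and with Fmn2-/- replicates 2 and 3 summed 11 and 0. Without the mice with low Thy1 0 pathway genes were called in the cross, and without these and the choroid-rich libraries 0 and 59 genes.

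Leaving out 1 mouse at a time gave ranges at 3 months of -0.15 to 0.02 (Mertk), -0.29 to 0.03 (Tyro3), 0 to 0.22 (Pros1) and 3 to 50 genes. At 8 months they were -0.2 to 0.07 (Mertk), -0.04 to 0.31 (Pros1), 0 to 13 pathway genes and 6 to 3114 genes. For age by genotype they were -0.13 to 0.12 (Mertk), -0.2 to 0.15 (Pros1), 0 to 12 pathway genes and 8 to 2805 genes. With age in Fmn2+/+ they were -0.13 to 0.13 (Mertk), -0.01 to 0.14 (Axl), -0.16 to 0.01 (Gas6), 0 to 6 pathway genes and 468 to 2971 genes. With age in Fmn2-/- they were -0.05 to 0.1 (Mertk), -0.03 to 0.13 (Tyro3), -0.31 to -0.22 (Gas6), 0.18 to 0.4 (Pros1) and 2 to 5 pathway genes, and in the cross 70 to 160 genes. The cause of these changes was not tested. At the shallowest library a Pros1 value carries a counting interval of ± 20%.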
